A study of Homo sapiens with 6 samples.

Results

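Parishin B (PB), a phenolic compound of the orchid Gastrodia elata, was given to MDA-MB-231 cells, an established line of triple-negative human breast cancer (BC), as a candidate ligand of the pseudokinase TRIB3. Poly(A) RNA was sequenced from 3 control samples and 3 samples given 20 μM PB for 24 h, and both groups were cells of the same line with no genetic change stated. The described genes were chosen by their own measured values. A gene entered the set when each PB sample held at least 30 counts, when its mean PB level was at least 1 FPKM (counts per kilobase of exon, scaled by the total of the sample) and when its mean CPM (counts scaled by the sample total alone) with PB was at least 4 times the control mean. Of 61806 genes, 12313 met the level criteria and 78 of these (0.633%) also met the fold criterion. Removal of 21 genes by name took out 16 of the 78 and left 62 members. Most of the 21 are known stress genes, such as DDIT3, TRIB3, ASNS, ATF3 and CHAC1. The names also included MIR616, ASNSP1, NGFR and CCND2. Because the rule used the PB against control contrast, the members' differences from control are descriptions and carry no test.

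The genes left out by name are mostly targets of the integrated stress response. In that pathway, kinases that sense amino acid shortage, unfolded protein or other stress slow general translation, while the transcription factor ATF4 is made in larger amounts and switches on genes for amino acid uptake and synthesis. Other stress programs act beside it: NRF2 drives antioxidant genes, p53 answers DNA damage, heat shock factor drives chaperones, and hypoxia-inducible factors answer low oxygen. BC cells can also change the signals they release, such as growth factors, cytokines and matrix proteases.

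Total counts lay between 15681655 and 21986948 per sample, so that 3 counts corresponded to 0.136 to 0.191 CPM. TMM scaling factors were 0.948 to 0.962 in control and 1.04 to 1.05 in PB samples. Over all tested genes the median log2 fold change was 0.011, and it was 0.14 when only library size was used for scaling. Of 10 markers of MDA-MB-231 cells, 0 were called higher by edgeR or DESeq2 and 2 were called lower. The 2 were S100A4, from 19.1 to 1.20 FPKM, and CAV1, from 71.1 to 34.9 FPKM. Without the fold limit, at an unadjusted p under 0.05, 0 of the 10 were higher and 9 lower. The median log2 fold change of the list was -0.75. VIM was at 603 FPKM in control and 635 FPKM with PB, while its fitted log2 fold change was -0.059. The fit uses TMM scaling and FPKM does not. The summed level was 1475 to 1492 FPKM in control and 1320 to 1329 FPKM in PB samples. Summed over 12 genes of luminal breast epithelium, the level was 58.8 to 60.3 FPKM in control and 4.18 to 4.66 FPKM in PB samples, with KRT7 alone at 44.5 and 0.44 FPKM. Of the 11 tested, 7 were called lower, with log2 fold changes from -1.04 (FOXA1) to -11.1 (AGR2). Beside KRT7 they included AGR2 (5.40 to 0 FPKM), CDH1 (3.98 to 0.013 FPKM) and ELF3 (1.99 to 0.003 FPKM). ESRP1 was called higher (0.397 to 1.35 FPKM), while ESR1, GATA3 and CLDN4 were not called, with log2 fold changes of 0.90, 0.66 and 0.15. The part of these markers in the members' values was not tested. In bulk RNA a smaller number of cells of one kind and less RNA per cell cannot be told apart. The immune, fibroblast and endothelial marker lists each summed to less than 2 FPKM in every sample.

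All 62 members were called higher by edgeR, where 5.36% of the 24200 genes tested were, and in all 62 every PB sample lay above every control sample, where 34.5% of tested genes did. Nothing is read from these counts, since the rule fixed them. TMM scaling gave 1296 genes called higher and 1629 lower, and library size alone gave 1809 and 1336. The ratio of mean CPM ranged from 4.02 to 20.7 with a median of 5.53. It was at least 10 in 9 members, between 5 and 10 in 31, and between 4 and 5 in 22. Just above the limit stood ENSG00000236529 (4.02), CTF1 (4.02), ARHGEF2 (4.03), AZU1 (4.04) and KDM7A (4.05), and just below it PDE2A (3.99), OLIG2 (3.94), CHGB (3.93), GTF2IP5 (3.92) and SQSTM1 (3.90).

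Members had low levels in both groups beside other genes, which in control follows in part from the rule. The median control level was 0.443 FPKM, against 6.25 FPKM over all genes that met the level criteria, and 41 of the 62 had under 1 FPKM. With PB the medians were 2.73 FPKM and 6.73 FPKM, and 14 members reached 10 FPKM or more. In 26 members no control sample held 30 counts, so these ratios rest on few control reads. By GENCODE v29, 43 members were protein coding, 9 antisense RNAs, 6 long intergenic RNAs and 3 of other classes, while ENSG00000289915 was not listed there. Together the members took 0.114 to 0.117% of all counts in control samples and 0.5998 to 0.611% in PB samples. The nuclear RNA NEAT1 alone held 0.0669 to 0.0707% and 0.345 to 0.370%.

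**Figure D1:**
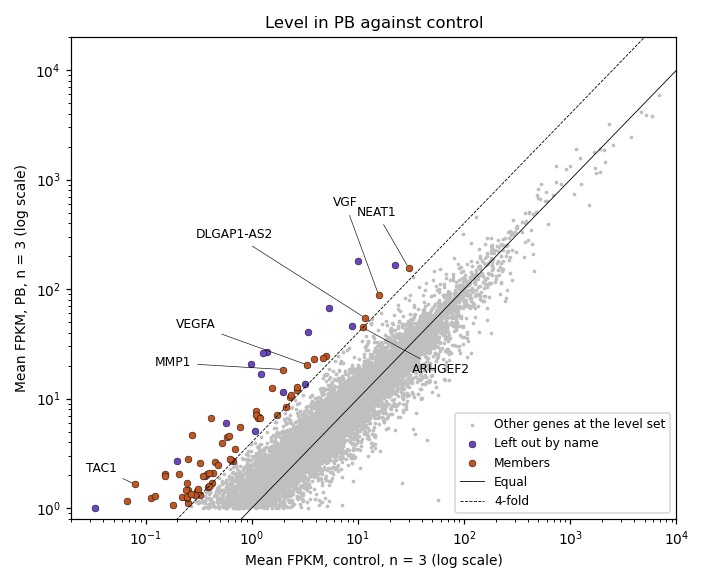
Mean FPKM in 3 PB samples against mean FPKM in 3 control samples for the 12313 genes that met the level criteria, both axes logarithmic, with lines at equal level and at 4-fold. The 62 members lie on or above the 4-fold line and mostly at the left, 41 of them under 1 FPKM in control; NEAT1 is the member with the highest level in both groups.

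Whether members that moved together also share letters near their start sites was examined in RefSeq promoters (GRCh38.p14), which run from 250 bases before to 50 after the start and were found for 40 members. The C/EBP-ATF element, to which ATF4 dimers are known to bind, was searched as TGATGNAAN on both strands. It was present in 4 of the 40 member promoters and in 3.69% of 27056 promoters. The sequences around these matches are shown because the element is the one that known stress genes carry. The 4 members with a match were on none of the stress gene lists described below. PCK2, SLC1A4, SLC6A9 and JDP2, which were on the stress response list, were among the 40 and held no match. The letters in capitals mark the match, and each sequence reads along the strand of its gene.
FBLL1, chr5:168529240-168529304 on the plus strand: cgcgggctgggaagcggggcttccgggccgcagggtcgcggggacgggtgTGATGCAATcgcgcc
LURAP1L-AS1, chr9:12814390-12814607 on the minus strand: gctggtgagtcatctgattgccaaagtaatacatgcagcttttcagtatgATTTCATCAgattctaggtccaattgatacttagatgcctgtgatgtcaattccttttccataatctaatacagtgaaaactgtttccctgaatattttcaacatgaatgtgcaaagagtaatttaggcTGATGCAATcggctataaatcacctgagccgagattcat
KCNT2, chr1:196608480-196608588 on the minus strand: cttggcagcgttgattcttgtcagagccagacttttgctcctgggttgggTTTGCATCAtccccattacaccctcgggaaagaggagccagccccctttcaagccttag
DLGAP1-AS2, chr18:3603487-3603594 on the plus strand: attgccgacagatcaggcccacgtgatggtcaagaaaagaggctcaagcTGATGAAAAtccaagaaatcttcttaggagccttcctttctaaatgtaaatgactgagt
FBLL1 and LURAP1L-AS1 held the same 9 letters, at -15 and -39 from the start, and LURAP1L-AS1 held a second match at -168. FBLL1, a relative of the nucleolar methyltransferase fibrillarin, had 5, 2 and 4 counts in control replicates 1, 2 and 3 and, in the same order, 45, 33 and 61 with PB. The ratio of means was 13.5, and the ratio of pooled counts had an exact 95% counting interval of 7.51 to 28.4. LURAP1L-AS1 had 8, 4 and 15 counts in control and 81, 106 and 121 with PB, a ratio of 13.0. Both members were thus counted with few reads in control.

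Other motifs were searched in the same way. A cAMP response element (CRE), TGACGTCA, was present in 1 member promoter (2.50%) and in 1.97% of all promoters. The member was VGF, with the match at -79, shown because VGF was the coding member with the highest level.
VGF, chr7:101165591-101165698 on the minus strand: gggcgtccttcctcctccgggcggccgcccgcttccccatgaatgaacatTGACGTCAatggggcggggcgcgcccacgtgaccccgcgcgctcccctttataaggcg
The AP-1 element TGANTCA was found in 5.00% of member promoters and 7.78% of all promoters, and the antioxidant element TGACNNNGC in 12.5% and 13.6%. Of 2 parts of the ER stress element, CCACG stood in 20 of the 40 member promoters and 37.9% of all promoters, and CCAAT in 8 of the 40 and 35.7%. A match is a string of letters and not a shown binding site. NEAT1 and VEGFA were not among the 40.

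Of the 42 coding members sorted by role, 9 encode secreted proteins or ligands. In the annotation terms deposited with the data, 10 of 39 members with a cellular component term (25.6%) carried extracellular space, against 4.25% of 10732 genes at the level set. Plasma membrane was carried by 35.9% of these members and 18.0% of those genes, nucleus by 17.9% and 39.0%, and cytosol by 15.4% and 38.5%. Cytokine activity was annotated to CTF1, TNFSF4, TSLP and VEGFA, 4 of 32 members with a molecular function term (12.5%). Of 9499 genes at the level set with such a term, 0.39% carried it.

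Peptide precursors gave both the largest ratio and the highest coding level. TAC1, the precursor of substance P and neurokinin A, had 5, 1 and 1 counts in control and 46, 37 and 61 with PB. Its ratio of means was 20.7, with an exact 95% counting interval of 10.7 to 57.2 for the pooled counts. Control replicate 1 held 5 of the 7 control counts, and the fitted log2 fold change was 4.28 with all samples and 5.50 without that replicate. VGF, the precursor of several neuropeptides of secretory granules, was at 15.0, 15.9 and 16.2 FPKM in control and 86.8, 89.9 and 88.1 FPKM in PB samples, with a log2 fold change of 2.36 (SE 0.037). Its 3 samples within each group lay close together. SPX, the precursor of the peptide spexin, was at 0.64, 0.53 and 0.57 FPKM in control and 4.21, 4.61 and 4.55 FPKM with PB, a ratio of 7.66.

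Among the proteases and cytokines, MMP1 encodes interstitial collagenase, which cuts fibrillar collagen. Its level was 1.77, 2.00 and 2.16 FPKM in control and 18.5, 18.8 and 18.1 FPKM with PB, a ratio of 9.34 and a log2 fold change of 3.08 (SE 0.080). TSLP, an epithelial cytokine that acts on dendritic cells, was at 0.56, 0.37 and 0.42 FPKM in control and at 2.55, 2.45 and 2.91 FPKM with PB. TNFSF4, the OX40 ligand that costimulates T cells, was at 0.20, 0.22 and 0.34 FPKM in control and at 1.59, 1.53 and 1.30 FPKM with PB. Both cytokine genes stayed under 3 FPKM in every sample. CTF1, a cytokine of the interleukin-6 family, had mean levels of 0.670 ± 0.236 FPKM in control and 2.69 ± 0.148 FPKM with PB (SD, n = 3). AZU1, a granule protein best known from neutrophils, had 0.387 ± 0.122 and 1.56 ± 0.280 FPKM.

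VEGFA, the main angiogenic growth factor, differed from the other members in its spread. In control replicates 1, 2 and 3 it had 1146, 609 and 855 counts, against 2456, 5485 and 7116 with PB, which gave 4.87, 2.46 and 2.69 FPKM and 10.7, 24.2 and 26.02 FPKM. PB replicate 1 was the lowest treated sample, and control replicate 1 was the highest control. The coefficient of variation (CV) of its CPM was 39.7% in control and 41.2% in PB samples. That was the highest CV among 6933 genes with a mean control count of at least 500 and among 6873 genes with such a mean with PB, whose medians were 2.67% and 2.82% and whose 99th percentiles were 9.14% and 9.03%. The 21 other members with such counts in PB samples had CVs of 0.664 to 8.92%. The ratio of VEGFA means was 6.08 and its log2 fold change 2.50. The fitted standard error pools spread across genes and is far smaller than the spread of VEGFA itself, so it is not given here. The SD of its log2 values within groups was 0.63, and leaving out 1 sample at a time gave log2 fold changes of 2.27 to 2.85.

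**Figure D2:**
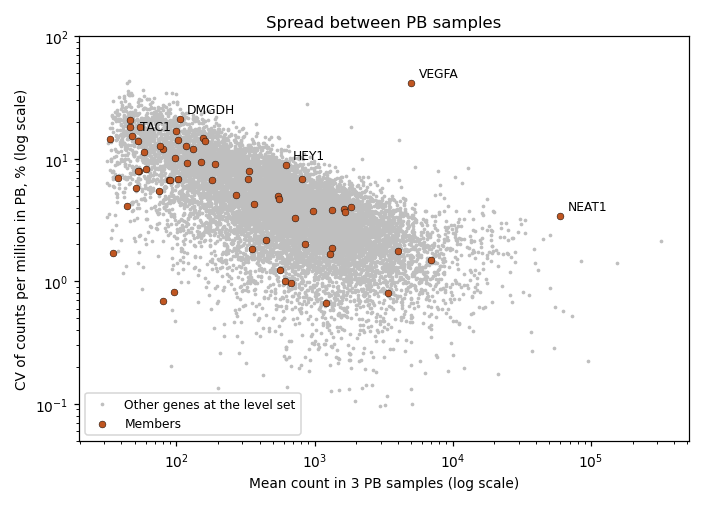
Coefficient of variation of CPM among the 3 PB samples, in percent, against the mean count in those samples, both axes logarithmic, for the 12313 genes that met the level criteria. Spread falls as counts rise, the members lie within the cloud, and VEGFA stands apart at 41.2%.

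At the cell surface, ULBP1 encodes a ligand of the NKG2D receptor of natural killer cells. It was at 4.77, 5.14 and 5.2 FPKM in control and 24.2, 25.9 and 24.2 FPKM with PB, a ratio of 4.92. TMIE, a part of the hair cell mechanotransduction complex, had 4, 12 and 14 counts in control and 52, 45 and 63 with PB. THBD, the endothelial anticoagulant receptor thrombomodulin, had 0.250 ± 0.040 FPKM in control and 1.12 ± 0.142 FPKM with PB (SD, n = 3).

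Transporters of small amino acids were among the members. SLC6A9, the glycine transporter GlyT1, was at 0.23, 0.27 and 0.23 FPKM in control and at 1.51, 1.79 and 1.79 FPKM with PB. SLC1A4, a carrier of alanine, serine and cysteine, was at 2.27, 2.35 and 2.19 FPKM in control and at 10.5, 10.3 and 10.3 FPKM with PB, a log2 fold change of 2.06 (SE 0.057). SLC1A4 had the narrowest spread among the PB samples of all members with at least 500 counts, with a CV of 0.664%. SLC16A8, a lactate carrier of the monocarboxylate family, had 0.437 ± 0.192 FPKM in control and 2.07 ± 0.245 FPKM with PB. Of the ion channels, SCN9A, a voltage-gated sodium channel of sensory neurons, had 1.73 ± 0.0987 FPKM and 7.08 ± 0.259 FPKM, and KCNT2, a sodium-activated potassium channel, had 0.640 ± 0.171 FPKM and 2.76 ± 0.219 FPKM (SD, n = 3).

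Members of vesicles and lysosomes covered different steps of membrane traffic. LAMP3, a lysosomal membrane protein of maturing dendritic cells, was at 1.20, 1.68 and 1.73 FPKM in control and at 12.6, 11.8 and 13.5 FPKM with PB, a ratio of 8.23. TM6SF1, a multi-span membrane protein, was at 0.25, 0.19 and 0.31 FPKM in control and at 2.52, 2.94 and 3.00 FPKM with PB, and it overlaps HDGFL3 on the opposite strand, which had a log2 fold change of -0.19. RAB39B, a small GTPase of vesicle traffic, was at 0.99, 1.18 and 1.09 FPKM in control and at 7.67, 7.98 and 7.70 FPKM with PB. SYT1, the calcium sensor of synaptic vesicle fusion, had 2.68 ± 0.155 FPKM in control and 11.9 ± 0.201 FPKM with PB.

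The 5 metabolic members act largely in mitochondria or on nucleosides. DMGDH, which turns dimethylglycine into sarcosine in choline breakdown, had 8, 4 and 8 counts in control and 93, 79 and 144 counts with PB, a ratio of 17.0 and a pooled counting interval of 11.0 to 28.8. PCK2, the mitochondrial phosphoenolpyruvate carboxykinase, was at 4.12, 3.86 and 3.72 FPKM in control and at 22.6, 22.6 and 24.2 FPKM with PB, a log2 fold change of 2.44 (SE 0.053). UPP1, a uridine phosphorylase, was at 4.76, 4.52 and 4.81 FPKM in control and at 22.6, 23.8 and 24.5 FPKM with PB. PCK2 and UPP1 thus reached much the same level and had narrow groups. NDUFA4L2, a hypoxia-responsive relative of a respiratory chain subunit, had 13, 10 and 8 counts in control and 90, 90 and 109 counts with PB. Its locus overlaps SHMT2 on the opposite strand, which was at 21.3 FPKM in control and 42.0 FPKM with PB, and without known strandedness reads of the overlap cannot be told apart. CYP1A1, a monooxygenase known as a target of the aryl hydrocarbon receptor, was at 0.42, 0.31 and 0.46 FPKM in control and at 1.99, 2.37 and 1.87 FPKM with PB.

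The 6 members grouped under transcription included both activators and repressors. EGR1, an immediate early zinc finger factor, was at 2.77, 2.62 and 2.62 FPKM in control and at 12.7, 13.0 and 12.8 FPKM with PB, a ratio of 4.80. JDP2, a repressor that pairs with Jun and ATF proteins, was at 1.25, 1.13 and 1.16 FPKM in control and at 6.56, 7.0 and 6.85 FPKM with PB. HEY1, a Notch target and repressor, was at 1.25, 0.93 and 1.26 FPKM in control and at 6.13, 7.31 and 6.60 FPKM with PB. EGR1 had the highest mean level of the 6 in both groups. KDM7A, a histone demethylase, was at 2.00, 1.98 and 2.28 FPKM in control and at 8.56, 8.27 and 8.53 FPKM with PB. AKNA, an AT-hook protein, was at 0.80, 0.77 and 0.78 FPKM in control and at 5.23, 5.52 and 5.62 FPKM with PB. The zinc finger gene ZFP2 had 11, 9 and 16 counts in control and 62, 43 and 59 with PB.

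Of 4 signalling members, ARHGEF2 had the highest level. It encodes GEF-H1, an activator of RhoA that is held on microtubules, and was at 11.0, 11.3 and 10.9 FPKM in control and 43.9, 45.2 and 44.8 FPKM in PB samples, a log2 fold change of 1.88 (SE 0.029). STK32A, a serine/threonine kinase, was at 0.58, 0.72 and 0.53 FPKM in control and at 4.56, 4.62 and 4.53 FPKM with PB, a ratio of 7.50. The adaptor gene LURAP1L was at 0.60, 0.72 and 0.79 FPKM and at 3.50, 3.75 and 3.27 FPKM. DUSP15, a phosphatase, had 0.303 ± 0.0751 FPKM in control and 1.43 ± 0.0971 FPKM with PB. Among coding members without a clear role in such cells, ERICH2 was at 0.61, 0.53 and 0.45 FPKM in control and at 3.82, 3.78 and 4.14 FPKM with PB. ACRBP, TSBP1 and ANKRD24 had ratios of 6.03, 5.57 and 5.38, and all 3 stayed under 2.4 FPKM in every sample.

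**Figure D3:**
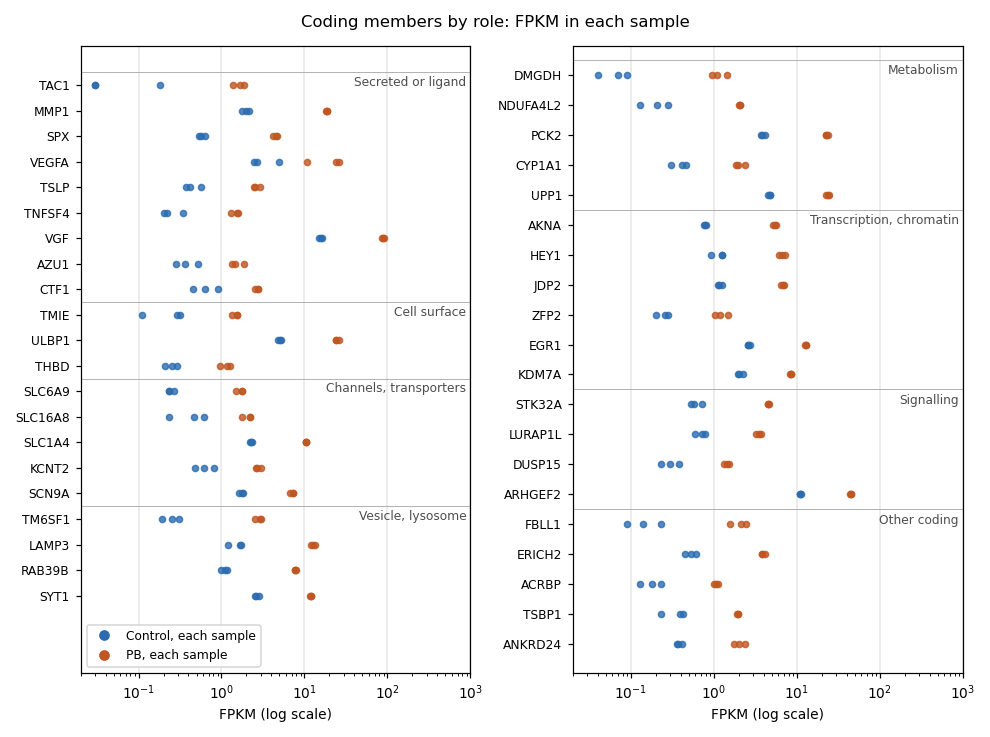
FPKM of 41 coding members in each of the 6 samples on a logarithmic axis, grouped by role, with blue points for control and orange points for PB samples. In every gene the 3 PB points lie to the right of the 3 control points; VGF has the highest level and VEGFA the widest spread among the more abundant genes.

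NEAT1, the gene of the RNA scaffold of nuclear paraspeckles, carried most of the members' reads. Counts were per gene and FPKM used an exonic length of 22767 bases, so transcript forms of NEAT1 were not told apart. Control samples held 10958, 12108 and 14716 counts and PB samples 58715, 56016 and 65456, or 29.5, 31.1 and 29.4 FPKM and 162.4, 156.9 and 151.7 FPKM. Its log2 fold change was 2.26 (SE 0.020). MALAT1, another nuclear RNA encoded 52148 bases away, was no member and rose from 5.71 to 14.3 FPKM, a log2 fold change of 1.20 (SE 0.040; edgeR adjusted p = 3.61e-197). NEAT1 was thus at far higher levels than MALAT1 in this poly(A)-selected RNA.

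At one locus on chromosome 8, 3 members lay side by side. HEY1 at 79762371 to 79767857 and LINC01607, which starts at 79768110 on the other strand, were 253 bases apart, and ENSG00000249328 overlaps LINC01607. LINC01607 had 5, 15 and 8 counts in control and 91, 84 and 95 with PB, and ENSG00000249328 had 18, 21 and 34 counts in control and 337, 321 and 392 with PB. Their ratios were 10.4 and 16.1, against 5.83 for HEY1. Leaving out control replicate 2 moved the log2 fold change of LINC01607 from 3.25 to 3.82. Because the overlapping pair share bases on opposite strands, the division of reads between them is uncertain.

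For 10 members a partner gene on the other strand, antisense or divergent, was picked after the values were seen. The partners LURAP1L and JDP2 were members themselves, with log2 fold changes of 2.16 (SE 0.149) and 2.40 (SE 0.078), beside 3.50 (SE 0.238) for LURAP1L-AS1 and 2.13 (SE 0.192) for JDP2-AS1. None of the 7 other picked partners that were tested was called higher. Genes on the opposite strand that were not picked included TYRP1, which overlaps LURAP1L-AS1 and was called higher (2.41, SE 0.520), from 0.0433 to 0.263 FPKM. The antisense member SCIRT, at 0.393 FPKM in control and 1.60 FPKM with PB, overlaps C6orf223, which was called lower (-2.92, SE 0.297), and LINC01512, which was called higher and was listed at 0 in control and at 0.297 FPKM with PB. Of the picked partners, SLC9A3 differed by 0.95 (SE 0.137; edgeR adjusted p = 1.89e-11) and MSC by 0.93 (SE 0.210; edgeR adjusted p = 2.77e-05), beside 2.56 for SLC9A3-AS1 and 1.91 for MSC-AS1. ZBED3 and VLDLR differed by 0.64 and 0.54, beside 2.21 for ZBED3-AS1 and 2.38 for VLDLR-AS1. In these 4 pairs the partner differed in the direction of the RNA but by less than the limit of 1 on the log2 scale.

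The remaining tested partners had log2 fold changes near or below 0. NBR2, which starts beside BRCA1, had 120, 125 and 147 counts in control and 507, 499 and 654 with PB, a log2 fold change of 2.08, while BRCA1 went from 6.34 to 4.38 FPKM, a log2 fold change of -0.67 (SE 0.041; edgeR adjusted p = 4.3e-59). ARIH2OS had a log2 fold change of 2.32 (SE 0.299) and ARIH2 one of -0.15, from 13.4 to 13.2 FPKM. PPM1L-DT had 1.96 (SE 0.306) and PPM1L 0.088 (edgeR adjusted p = 0.186). DLGAP1-AS2, the second most abundant noncoding member, was at 11.2, 12.04 and 11.7 FPKM in control and 54.6, 54.4 and 55.2 FPKM with PB, while DLGAP1 itself was at 0.023 FPKM in control and 0.020 FPKM with PB and was too low to test. The strand setting of the counts is not given in the sources used here, so reads of overlapping antisense pairs cannot be told apart.

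**Figure D4:**
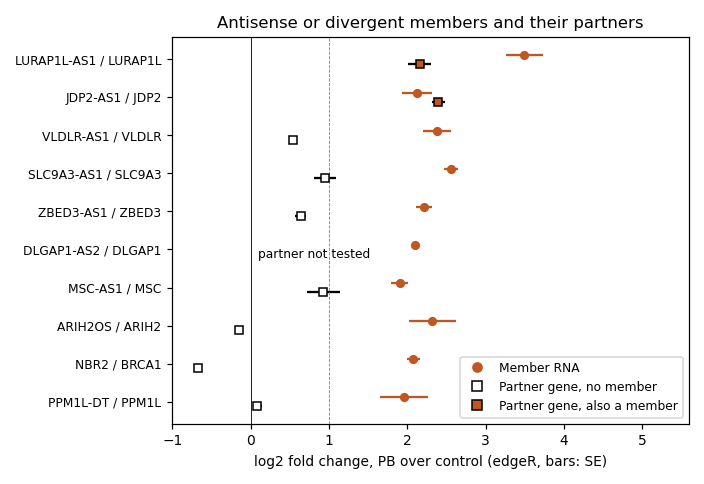
The log2 fold changes of PB over control from edgeR for 10 antisense or divergent members (circles) and their partner genes (squares), with bars for the standard error and a dashed line at 1. LURAP1L and JDP2 lie at 2.16 and 2.40, while the other tested partners lie between -0.67 and 0.95.

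Of the members without a symbol, ENSG00000289915 on chromosome 19 had 4, 2 and 6 counts in control and 58, 60 and 58 with PB, a ratio of 16.6. ENSG00000272156 had 16, 2 and 6 counts in control and 33, 32 and 40 with PB, so that control replicate 1 stood apart. Its log2 fold change was 2.10 with all samples and 3.18 without that replicate. It lies on the strand of ACYP2 and overlaps it, and ENSG00000236529 is a processed pseudogene, so both values are uncertain. Other noncoding members with more than 200 counts in each PB sample were SLC9A3-AS1 (1.09 ± 0.114 and 7.09 ± 0.0907 FPKM), ZBED3-AS1 (0.247 ± 0.0231 and 1.27 ± 0.0551 FPKM) and MSC-AS1 (0.420 ± 0.0346 and 1.70 ± 0.115 FPKM; control and PB, SD, n = 3).

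The genes around the members were then examined, within 100 kb, a window chosen after the values were seen. Of 310 other tested genes in these windows, 32 (10.3%) were called higher and 8 (2.58%) lower, against 5.36% and 6.73% of all tested genes. For the 274 that overlapped no member the shares were 8.76% and 2.55%, with a median log2 fold change of 0.26. Close neighbours called higher included MMP10, a stromelysin 8773 bases from MMP1 (log2 fold change 1.32, SE 0.274), KDM7A-DT, 201 bases from KDM7A (1.60, SE 0.150), and DLGAP1-AS1, 4637 bases from DLGAP1-AS2 (1.13, SE 0.074). No member lay within 100 kb of a gene left out by name. In all, 28 members overlapped another tested gene.

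The label of the set, genes outside known stress families, was compared with lists of stress genes. It held only in part, since 8 members were on such lists. PCK2, SLC1A4, SLC6A9, VEGFA, JDP2, ULBP1 and KDM7A were on the list of further integrated stress response genes, and EGR1 on that of immediate early genes. Of 44 tested genes of the first list that were no members, 21 were called higher and 2 lower, with a median log2 fold change of 0.95, against 5.36% and 6.73% called among all genes. ATF4 itself rose from 58.9 to 153.1 FPKM, a log2 fold change of 1.25 (SE 0.027), and the cargo receptor gene SQSTM1 from 33.4 to 130.2 FPKM. The 2 called lower were ATF5 (-1.08) and the taurine transporter gene SLC6A6 (-1.36).

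Each of the next 3 lists held genes called in both directions. Of 21 antioxidant genes of NRF2, OSGIN1 (log2 fold change 1.505) and HMOX1 (1.00) were called higher, and 3 lower, among them ABCC2 (-3.52) and PGD (-1.25). Without the fold limit, at an unadjusted p under 0.05, 10 were higher and 8 lower. Genes that missed a call through the fold limit included TXNRD1 (0.83) and TKT (-0.705). The call of HMOX1, the heme oxygenase, sat at the limit. Beside EGR1, KLF4 (1.41) was the immediate early gene called higher among 24, while CCN1 (-1.45), IER5 (-1.16), FOSL2 (-1.14) and KLF6 (-1.07) were called lower. Of 20 ER stress genes, ERN1 (1.499) and the chaperone gene HSPA5 (1.14) were called higher, and SDF2L1 (-1.32) and PDIA4 (-1.05) lower. At an unadjusted p under 0.05, 8 immediate early genes were higher and 11 lower, and 8 ER stress genes were higher and 12 lower.

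Lists for p53, heat shock and hypoxia contained more genes called lower than higher. Among 24 p53 targets edgeR and DESeq2 called 0 higher, while 7 were higher and 14 lower at an unadjusted p under 0.05. In edgeR the 7 higher genes also passed the adjusted p limit of 0.05. They missed a call through the fold limit, with log2 fold changes of 0.13 (POLK) to 0.86 (PLK3). PHLDA3 (-5.03), PLK2 (-2.02), AEN (-1.70), BTG2 (-1.54) and FAS (-1.49) were called lower. Among 19 heat shock genes edgeR and DESeq2 called 0 higher, while 0 were higher and 16 lower at an unadjusted p under 0.05. HSPB8 (-1.55), HSPE1 (-1.54), HSP90AA1 (-1.47), HSPA8 (-1.24) and HSPH1 (-1.08) were called lower. VEGFA and NDUFA4L2 are both known to answer hypoxia. Of 22 other genes of hypoxia and glucose supply, ARRDC3 (1.05) was called higher. EGLN3 (-5.01), TXNIP (-3.83), CA9 (-3.37), NDRG1 (-3.31), ADM (-2.43), LDHA (-1.77), PFKFB3 (-1.66) and IRS2 (-1.18) were called lower. At an unadjusted p under 0.05, 5 of the 22 were higher and 13 lower.

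**Figure D5:**
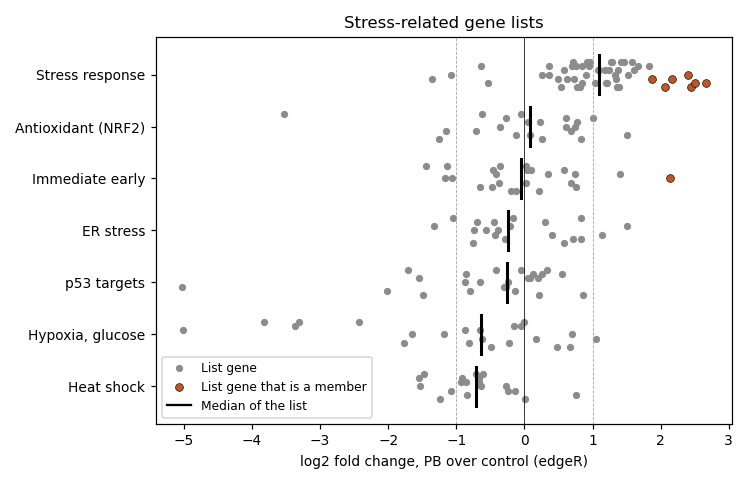
The log2 fold changes of PB over control from edgeR for the tested genes of 7 stress-related lists, with members in orange, a bar at each list's median and dashed lines at -1 and 1. The stress response list has its median at 1.10 with its 7 members, which the rule chose for a high ratio, and at 0.95 without them. The medians of the hypoxia and heat shock lists, which hold no member, lie at -0.64 and -0.71.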

How the data were processed

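RNA from 3 control and 3 PB samples of MDA-MB-231 was analysed, grouped by the labels. The dose and the time were taken from the methods of the study. The authors deposited raw counts per gene and FPKM values, which were the counts scaled by exonic length and total count. The submitters' processing notes name HTSeq 0.6.1, DESeq2, Cufflinks 2.2.1 and hg38, and the aligner and strand setting are not given in the sources used here. The deposited coordinates lay within 5000 bases of GENCODE v29 for 58 of 61 members listed there.

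The members and the gene lists were chosen with earlier results of these data known. Tests covered genes whose mean FPKM reached 0.1 and were made with edgeR 4.0.16 (R 4.3.3) by TMM normalization and the quasi-likelihood test, with Benjamini-Hochberg adjustment over 24200 genes. A call needed an adjusted p no higher than 0.05 and a log2 fold change of 1 or more in either direction. Each standard error (SE) of a log2 fold change was worked back from the test. It is the absolute log2 fold change divided by the square root of the F statistic. Neither separate cultures nor pairing are stated, so the spread between these samples may be technical. For every gene, the standard errors and p-values rest on a spread pooled across genes. They can therefore be far smaller than the spread of a single gene between its samples would give. Replicates of a group differed by slightly more than sampling noise (chi-square per degree of freedom 1.45 to 1.92). Exact intervals cover counting error only. The 30 coding members with the largest ratio, members on a list and called list genes were eligible to be named, and any further genes were picked with their values in view. The procedure was tested on simulated counts. Alternatives were other filters, DESeq2 1.42.0, library size alone, the replicate number as a block and each sample left out. Values of some genes are not reported here.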

Additional observations from a re-analysis of the deposited data

How the results depend on the processing

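The set of 62 depended on its limits. It held 36 genes with at least 100 counts in each PB sample, 23 with a mean PB level of at least 5 FPKM, 164 at 3-fold, 13 at 8-fold and 53 with TMM-scaled library sizes, and 60 to 65 when 1 sample was left out. The 1296 genes called higher and 1629 lower became 608 and 769 when a mean FPKM of 1 was asked for, and 259 and 627 when the log2 fold change had to reach 2. With library size alone 1 of the stress response list and 1 of the ER stress list were called lower in place of 2 each. With a mean FPKM of at least 1, 3 of the p53 list and 3 of the hypoxia list were called lower in place of 5 and 8, since fewer genes were tested. The count of NRF2 genes called higher was 1 to 2 without 1 sample: HMOX1 lost its call without control replicate 1 or 2 or PB replicate 1 or 2. The median of the immediate early list, -0.048, turned to 0.016 with no filter and to 0.085 with library size alone. Of 663 recomputed member log2 fold changes, 605 moved by less than the spread, 58 by more and 0 changed sign, and the largest shift was that of TAC1 (1.21). Control and PB samples of the same number did not deviate together (correlations -0.118, 0.055 and -0.099). Pairs of unlike number reached 0.171, and with 3 samples per group a weak pairing could go unseen. With the replicate block 1206 genes were called higher and 1547 lower. Depth limits the 26 members with under 30 counts in each control sample.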
